A study of Mus musculus with 4 samples.

Results

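Genes of the transforming growth factor beta (TGF-beta) and bone morphogenetic protein (BMP) pathway were followed in the neocortex of mouse embryos. They were chosen by gene symbol, and not by any measured value, as probes whose platform annotation gives 1 symbol of the Tgfb, Ltbp, Bmp, Bmpr, Smad, Smurf, Acvr, Inh or Gdf families, of the BMP and activin antagonists, or of Nodal, Lefty, Amh, Tgif, Ski and Skil, with a value on 3 or more arrays. Of the 6856 probes on the array, 52 carried such a symbol. Of these, 39 probes for 39 different genes had a value on all 4 arrays and are described here. The other 13 had no value on any array, so that a value on exactly 3 arrays did not occur. They were Acvr1b, Acvrl1, Bmp5, Bmp8a, Bmp8b, Grem1, Inhbc, Inhbe, Nog, Smad1, Smad9, Tgfbr2 and Tgfbr3, which leaves the type II and type III TGF-beta receptors and the BMP antagonist noggin without a measurement. The 52 probes also held no symbol of Tgfb2, Smad3, Smad7, Ski, or the Smurf, Lefty and Amh families, so these were not followed either.

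The tested RNA came from null mutant embryos, described in the labels as synaptically silent, and was compared with RNA pooled from 4 biological replicates of normal mice. Both were total RNA of the neocortex, of C57BL/6 background and embryonic day 16, although the source name of replicate 1 gives day 14. Each of 4 two-colour arrays held a separate biological replicate of the null beside the shared pool, with the null RNA in Cy3 on replicate 1 and in Cy5 on replicates 2, 3 and 4. The labels name no tissue-restricted or conditional allele, and they do not say how many embryos made up a sample. Values are the deposited log ratios of the channels of each array, read as log2, a base that is not stated and on which the fold sizes rest. The labels and files do not state which channel is the numerator, and a positive ratio therefore cannot be assigned to higher RNA in the null or in the pool, and every sign below is the sign as deposited. Replicates 2 to 4 run the same way whatever the numerator, and carry the tests. Replicate 1 is given beside them as deposited.

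In this pathway, dimeric ligands bind pairs of type I and type II serine/threonine kinase receptors, which phosphorylate receptor-regulated Smad proteins that enter the nucleus with the common Smad4. TGF-beta is secreted in a latent form, held in the extracellular matrix by latent TGF-beta binding proteins, and BMPs and activins are held off their receptors by secreted antagonists such as chordin and follistatin. In the developing forebrain, BMPs pattern the dorsal midline and choroid plexus and influence progenitor fate, and TGF-beta is known for its roles in vessels, axon specification and later glial differentiation.

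The probe sequences are not part of the files used here, so the sequences shown are the stretches of 250 bases before the start of transcription, taken from RefSeq (build GRCm38.p6), for genes that had an unadjusted p under 0.05 below. The latent TGF-beta binding proteins Ltbp1 and Ltbp2 are shown because they had opposite signs, and Tgfbi because it is named for its induction by TGF-beta. Capitals mark 3 motifs, searched on both strands. The first is the Smad-binding core CAGAC, which reads as GTCTG where it lies on the other strand. The second is the GC-rich element GGCGCC of BMP-regulated Smads. The third is the cyclic AMP response element TGACGTCA, the site of the activity-regulated factor CREB. None of these motifs overlapped another in the sequences shown.
Ltbp1, upstream start, chr17:75005279-75005528 (+): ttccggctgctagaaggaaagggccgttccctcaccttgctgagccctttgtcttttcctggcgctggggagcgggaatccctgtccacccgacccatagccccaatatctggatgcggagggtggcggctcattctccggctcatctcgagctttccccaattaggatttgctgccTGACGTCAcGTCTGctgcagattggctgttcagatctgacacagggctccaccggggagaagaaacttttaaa
Ltbp1, downstream start, chr17:75178531-75178780 (+): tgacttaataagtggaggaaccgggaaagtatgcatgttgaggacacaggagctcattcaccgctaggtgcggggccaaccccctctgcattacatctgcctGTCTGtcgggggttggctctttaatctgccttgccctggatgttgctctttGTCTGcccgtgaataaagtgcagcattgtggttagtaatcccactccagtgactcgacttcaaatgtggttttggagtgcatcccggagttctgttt
Ltbp2, chr12:84876492-84876741 (-): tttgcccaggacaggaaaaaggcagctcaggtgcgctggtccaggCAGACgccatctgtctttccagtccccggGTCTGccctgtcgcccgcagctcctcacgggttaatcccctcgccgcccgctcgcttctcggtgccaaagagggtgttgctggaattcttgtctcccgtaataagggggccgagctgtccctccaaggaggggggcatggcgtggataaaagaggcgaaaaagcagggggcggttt
Tgfbi, chr13:56609336-56609585 (+): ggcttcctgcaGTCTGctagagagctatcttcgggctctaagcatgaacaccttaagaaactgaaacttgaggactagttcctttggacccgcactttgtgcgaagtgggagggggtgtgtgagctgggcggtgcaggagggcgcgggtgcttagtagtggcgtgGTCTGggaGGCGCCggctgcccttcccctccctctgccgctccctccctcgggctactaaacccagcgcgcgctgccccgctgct

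The Smad-binding core stood once in the upstream and 2 times in the downstream promoter of Ltbp1, and 2 times each in those of Ltbp2 and Tgfbi. The promoter of Tgfbi also held the GC-rich element 1 time. The upstream promoter of Ltbp1 held the cyclic AMP response element, the sole match to it among the 37 promoters of 26 pathway genes found in the RefSeq table. Over these 37 promoters the core was present in 17, or 45.9%, against 42.2% of all 32851 promoters of the table. The GC-rich element was present in 7, or 18.9%, against 9.59% of all, and the response element in 2.70% against 1.55% of all. These matches describe letters in the window and do not show binding. Bmp2 was not among the genes found in the table, and its sequence is not shown.

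Across the 39 genes the mean log ratios, in which genotype and dye are not separated, were small and split evenly by sign. On replicates 2 to 4 the mean log ratio was positive for 20 genes and negative for 19, with a median of 0.012, against -0.016 over all 5720 probes tested. The median size of the mean was 0.14, against 0.17 over all probes. The means lay between -0.64 and 0.55, and 3 genes, Ltbp1, Ltbp2 and Bmp2, lay beyond 0.5 in size. A value on 3 arrays that stayed on the same side of 0 was found for 14 of 39 genes, or 35.9%, close to the 33.5% of all probes. The 95% interval of a gene's mean reached a median of 0.40 to either side, or 1.32-fold, and for 37 of 39 genes it lay wholly within 2-fold, the exceptions being Ltbp1 and Smad6.

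**Figure D1:**
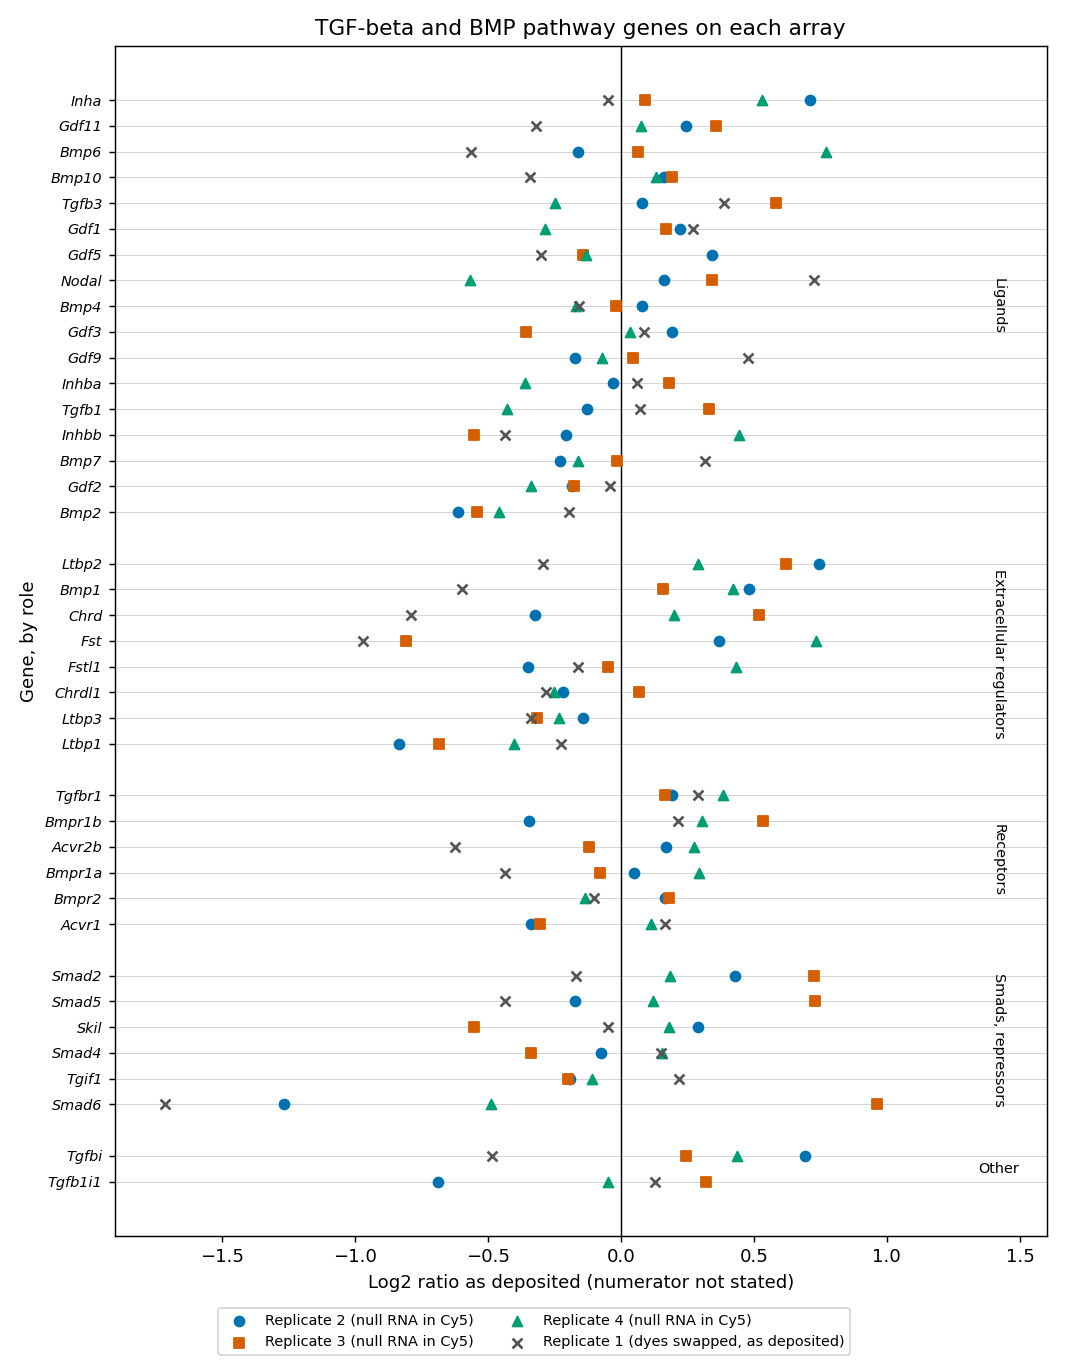
Log2 ratio as deposited (horizontal axis) of each of the 39 genes (vertical axis, grouped by role and ordered by the mean of replicates 2 to 4), with a point for each array. Bmp2, Ltbp1 and Ltbp3 are negative on all 4 arrays and Tgfbr1 is positive on all 4, while Smad6 spreads from -1.71 on replicate 1 to 0.96 on replicate 3.

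No gene of the pathway passed the threshold. The mean log ratio was tested against 0 with limma, adjusted by Benjamini-Hochberg over all 5720 probes, and 0 of 39 genes had an adjusted p under 0.05, as did 0% of all probes. The smallest adjusted p of a pathway gene was 0.454 in limma. At an unadjusted p under 0.05, limma listed 6 of 39 genes, or 15.4%, against 9.67% of all probes. Of these, 4 were positive, Ltbp2, Tgfbi, Smad2 and Inha (5.61% of all probes were positive at this mark), and 2 were negative, Ltbp1 and Bmp2 (4.06% of all probes). Without replicate 2, the same count was 0 of 39 in limma, against 4.09% of probes, and the remaining fit rests on 2 arrays.

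**Figure D2:**
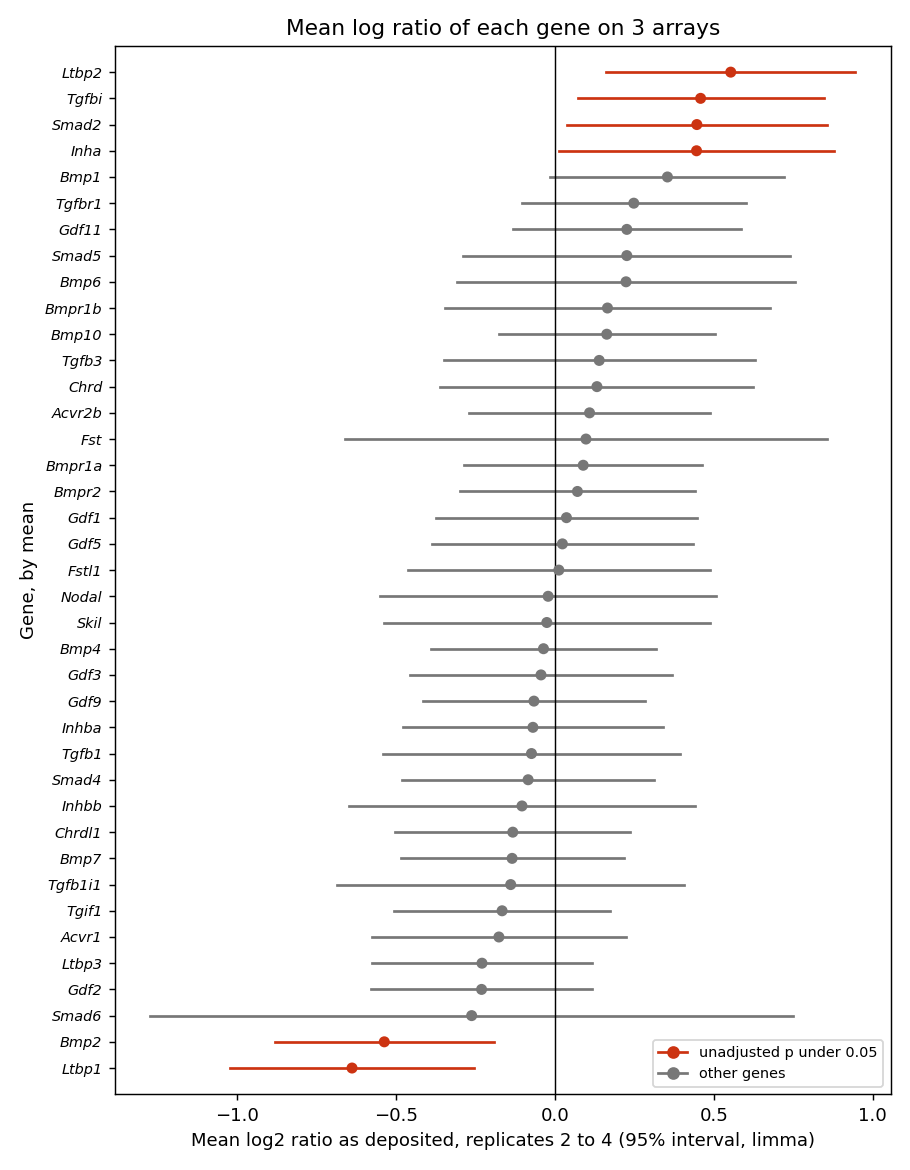
Mean log2 ratio as deposited on replicates 2 to 4 (points) with the 95% interval from limma (lines) for each gene, ordered by the mean. The 6 genes in red have an unadjusted p under 0.05, and the intervals of the other 33 include 0.

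Among the 17 genes of ligands and ligand subunits, 7 had a positive and 10 a negative mean. Bmp2, a BMP ligand, had log ratios of -0.61, -0.54 and -0.46 on replicates 2, 3 and 4, and -0.20 on replicate 1. It was negative on every array, with a spread among the 3 arrays that was small beside its mean. Its mean was -0.54 ± 0.08 (SD, n = 3), or 1.45-fold in size, with an adjusted p of 0.454 in limma (unadjusted 0.00916), which placed it at rank 105 of 5720 probes. Inha, the alpha subunit that turns activin subunits into the antagonist inhibin, had 0.71, 0.093 and 0.53 on replicates 2 to 4 and -0.046 on replicate 1. The value on replicate 3 was far below the others, and the mean was 0.45 ± 0.32 (SD, n = 3), with an adjusted p of 0.504 in limma (unadjusted 0.0451).

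The other BMP-type ligands had means closer to 0. Gdf2, also known as BMP9 and a ligand of endothelial receptors, had -0.18, -0.17 and -0.34 on replicates 2 to 4 and -0.041 on replicate 1. It was negative throughout, but its mean of -0.23 ± 0.09 (SD, n = 3) had an adjusted p of 0.625 in limma. Bmp10, a ligand best known from the heart, had 0.16, 0.19 and 0.13 on replicates 2 to 4 and -0.34 on replicate 1. The 3 arrays with null RNA in Cy5 lay close together, and replicate 1 lay apart with the other sign. Bmp7, a ligand of dorsal forebrain and meninges, had -0.23, -0.014 and -0.16 on replicates 2 to 4 and 0.32 on replicate 1. Bmp4, the dorsal midline ligand, had 0.078, -0.019 and -0.17 on replicates 2 to 4 and -0.16 on replicate 1. Its mean of -0.036 had a 95% interval of -0.39 to 0.32 in limma. Bmp6 had -0.16, 0.064 and 0.77 on replicates 2 to 4 and -0.56 on replicate 1, so that replicate 4 alone set its mean of 0.22.

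Ligands of the TGF-beta, activin and Nodal branch also differed between arrays by more than their means. Tgfb1 had -0.13, 0.33 and -0.43 on replicates 2 to 4 and 0.072 on replicate 1, and Tgfb3 had 0.080, 0.58 and -0.25 with 0.39 on replicate 1. Both of these TGF-beta ligands were highest on replicate 3 and lowest on replicate 4 among the 3 arrays. Inhba, the beta A subunit of activin, had a mean of -0.069 ± 0.27 (SD, n = 3), and Inhbb, the beta B subunit, had -0.10 ± 0.50. Nodal, a ligand of early embryonic patterning, had 0.16, 0.34 and -0.57 on replicates 2 to 4 and 0.73 on replicate 1. Gdf11, an activin-like ligand that restrains neurogenesis in the olfactory epithelium, had 0.25, 0.36 and 0.076 on replicates 2 to 4 and -0.32 on replicate 1, with an adjusted p of 0.643 in limma for its mean of 0.23. Gdf1, Gdf3, Gdf5 and Gdf9 had means between -0.066 and 0.036.

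The 8 extracellular regulators included the gene with the smallest p of the pathway in limma. The latent TGF-beta binding proteins did not run the same way on replicates 2 to 4, but all were negative on replicate 1. Ltbp1, which tethers latent TGF-beta to the matrix, had -0.83, -0.68 and -0.40 on replicates 2, 3 and 4 and -0.23 on replicate 1. All arrays were negative, and the mean of -0.64 ± 0.22 (SD, n = 3), or 1.56-fold in size, had an adjusted p of 0.454 in limma (unadjusted 0.00696, rank 85 of 5720). Ltbp2, a microfibril protein of the same family that does not bind latent TGF-beta, had 0.75, 0.62 and 0.29 on replicates 2 to 4 and -0.29 on replicate 1. Its mean was 0.55 ± 0.24 (SD, n = 3), or 1.47-fold in size, with an adjusted p of 0.473 in limma (unadjusted 0.0139). Ltbp3, a binding protein of latent TGF-beta, had -0.14, -0.32 and -0.23 on replicates 2 to 4 and -0.34 on replicate 1. It had the sign of Ltbp1 on all 4 arrays at a smaller size, with an adjusted p of 0.627 in limma for its mean of -0.23 ± 0.09 (SD, n = 3).

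Bmp1, which despite its name is a metalloprotease that cleaves chordin and procollagens, had 0.48, 0.16 and 0.42 on replicates 2 to 4 and -0.60 on replicate 1. Its mean of 0.35 ± 0.17 (SD, n = 3) just missed the unadjusted mark in limma, at 0.0567, with an adjusted p of 0.525. The antagonists showed no common sign. Chrd, which encodes the BMP antagonist chordin, had -0.32, 0.52 and 0.20 on replicates 2 to 4 and -0.79 on replicate 1. Chrdl1, a chordin-like BMP antagonist, had -0.22, 0.069 and -0.25 with -0.28 on replicate 1. Fst, the activin antagonist follistatin, had 0.37, -0.81 and 0.73 on replicates 2 to 4 and -0.97 on replicate 1. Its values spanned 1.54 on the 3 arrays, against a median span of 0.49 for the pathway and 0.51 for all probes. Fstl1, a secreted follistatin-like glycoprotein, had a mean of 0.012 ± 0.39 (SD, n = 3).

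None of the 6 receptor genes reached an unadjusted p under 0.05 in limma, where 9.67% of all probes did. Tgfbr1, the type I receptor of TGF-beta, had 0.19, 0.17 and 0.38 on replicates 2, 3 and 4 and 0.29 on replicate 1. It was the sole receptor with the same sign on all 4 arrays, and its mean of 0.25 ± 0.12 (SD, n = 3) had an adjusted p of 0.613 in limma. Acvr1, a type I receptor of BMPs and activins, had -0.34, -0.30 and 0.11 on replicates 2 to 4 and 0.17 on replicate 1, with a mean of -0.18 ± 0.25 (SD, n = 3). Bmpr1b, a type I BMP receptor, had -0.34, 0.54 and 0.31 on replicates 2 to 4 and 0.21 on replicate 1, with a mean of 0.17 ± 0.46 (SD, n = 3). The signs of both receptors differed among the 3 arrays. The type I receptor Bmpr1a and the type II receptors Bmpr2 and Acvr2b had means between 0.071 and 0.11.

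Among the 6 genes of Smads and their nuclear repressors, Smad2 had the only unadjusted p under 0.05 in limma. Smad2, which carries signals of TGF-beta, activin and Nodal, had 0.43, 0.73 and 0.18 on replicates 2, 3 and 4 and -0.17 on replicate 1. Its mean was 0.45 ± 0.27 (SD, n = 3), or 1.36-fold in size, with an adjusted p of 0.488 in limma (unadjusted 0.0371). Smad5, of the BMP branch, had -0.17, 0.73 and 0.12 on replicates 2 to 4 and -0.44 on replicate 1, and a mean of 0.23 that rested on replicate 3. Smad4, the partner common to both branches, had -0.073, -0.34 and 0.16 on replicates 2 to 4 and 0.15 on replicate 1, and its interval in limma was -0.48 to 0.31. Tgif1, a homeodomain repressor that binds Smads, had -0.19, -0.20 and -0.11 on replicates 2 to 4 and 0.22 on replicate 1. The 3 arrays were close together, but the mean of -0.17 ± 0.05 (SD, n = 3) had an adjusted p of 0.705 in limma. Skil, which encodes the Smad repressor SnoN, had a mean of -0.026 ± 0.46 (SD, n = 3).

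Smad6, an inhibitory Smad that is itself induced by BMP signals and is prominent in endothelium, varied most between arrays, and its values are given because of that spread. It had -1.26, 0.96 and -0.49 on replicates 2, 3 and 4 and -1.71 on replicate 1. It was thus the lowest pathway gene on replicates 1 and 2 and the highest on replicate 3. Its mean of -0.26 ± 1.13 (SD, n = 3) had a 95% interval of -1.27 to 0.75 in limma, the widest of the 39. Over the pathway, 3 genes spanned more than 1 on the 3 arrays, namely Smad6, Fst and Tgfb1i1, or 7.69%, against 14.7% of all probes.

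The last 2 genes share the name of the family without being core parts of the pathway. Tgfbi, a matrix protein induced by TGF-beta, had 0.69, 0.25 and 0.44 on replicates 2, 3 and 4 and -0.48 on replicate 1. Its mean was 0.46 ± 0.22 (SD, n = 3), or 1.37-fold in size, with an adjusted p of 0.473 in limma (unadjusted 0.0277). Tgfb1i1, the focal adhesion adaptor Hic-5, had -0.69, 0.32 and -0.049 on replicates 2 to 4 and 0.13 on replicate 1.

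Replicate 1, with the dyes swapped, divided the pathway genes into a pair of sets. Of the 14 genes with the same sign on replicates 2 to 4, 5 had that sign on replicate 1 as deposited, namely Ltbp1, Bmp2, Ltbp3, Gdf2 and Tgfbr1. The other 9, Ltbp2, Tgfbi, Smad2, Inha, Bmp1, Gdf11, Bmp10, Tgif1 and Bmp7, had the opposite sign there. If the ratios are channel 2 over channel 1 throughout, replicate 1 has to be turned, and the second set is then the one that runs the same way on 4 arrays. It makes up 23.1% of the 39 genes, against 18.1% of all probes. If the ratios had already been set to run one way, the first set does, at 12.8% of the genes against 15.5% of all probes. A dye effect of replicates 2 to 4 has the opposite sign on replicate 1 where ratios were already set one way, and the same sign where they were not. Dye and genotype cannot be told apart on the 3 arrays alone.

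**Figure D3:**
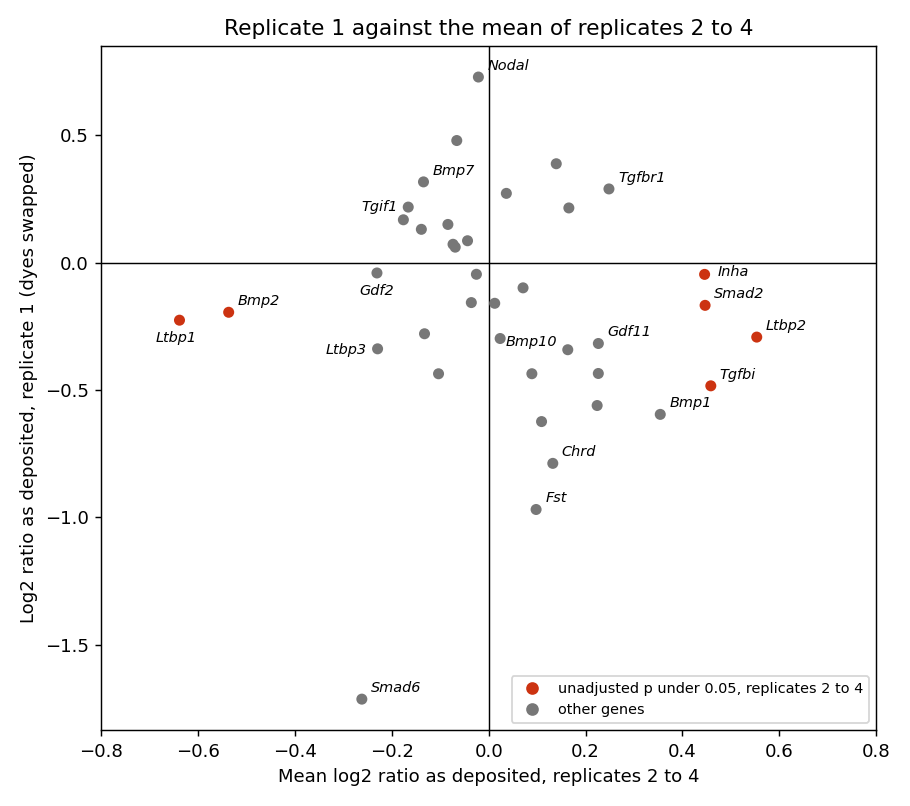
Log2 ratio as deposited on replicate 1 (vertical axis) against the mean of replicates 2 to 4 (horizontal axis), with a point for each of the 39 genes. Ltbp1 and Bmp2 are negative on both axes, whereas Ltbp2, Tgfbi, Smad2 and Inha are positive on the horizontal and negative on the vertical axis.

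The fits of 4 arrays followed the same division. With replicate 1 turned, limma listed 4 genes at an unadjusted p under 0.05, or 10.3% against 8.44% of 5687 probes, and all were positive (5.29% of those probes). They were Tgfbi at a mean of 0.46 ± 0.18 (SD, n = 4), Ltbp2 at 0.49 ± 0.23, Bmp1 at 0.41 ± 0.19 and Smad2 at 0.38 ± 0.26, with adjusted p of 0.510, 0.516, 0.522 and 0.559 in limma. With replicate 1 as deposited, limma listed 2 genes, or 5.13% against 7.12% of probes, and both were negative (3.64% of those probes). They were Ltbp1 at -0.54 ± 0.27 (SD, n = 4) and Bmp2 at -0.45 ± 0.18, each with an adjusted p of 0.663 in limma. The fits differ only in the sign of replicate 1, and 0 genes passed the adjusted threshold in either, against 0% of all probes in the fit that turns replicate 1 and 0.0352% in the other.

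Replicate 1 also stood lower for the pathway as a whole. On it, 25 of 39 genes were negative as deposited, or 64.1%, against 49.8% of its probes, with a median of -0.16 against 0.0017. The shares of negative pathway genes on replicates 2, 3 and 4 were 51.3%, 43.6% and 46.2%, against 54.1%, 50.3% and 49.3% of their probes. By role, the medians on replicate 1 were -0.32 for the extracellular regulators, -0.18 for Tgfbi and Tgfb1i1, -0.11 for the Smads and repressors, -0.041 for the ligands and 0.034 for the receptors. Replicate 1 was not the lowest in every role. For the ligands the median of replicate 4, at -0.16, was lower, and for the Smads and repressors that of replicate 2, at -0.12, was as low.

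A further list held 117 symbols of genes that work with the pathway but do not carry its family names, with older names of some included. Of these, 58 genes were measured by 59 probes, with 27 positive and 32 negative means and a median of -0.054. At an unadjusted p under 0.05 limma listed 3 positive and 2 negative probes, or 8.47%, against 9.67% of all probes, and 0 passed after adjustment. The positive genes were Traf6, a ubiquitin ligase at the TGF-beta receptors, at 0.54 ± 0.20 (SD, n = 3), Map3k7, the kinase TAK1 that Traf6 activates, at 0.52 ± 0.25, and Twsg1, a secreted modulator of BMP and chordin, at 0.56 ± 0.46. The negative genes were Hgs, an endosomal sorting protein, at -0.49 ± 0.36 and Id1, a target gene of BMP signals, at -0.36 ± 0.13. Id1 had -0.40, -0.45 and -0.21 on replicates 2, 3 and 4 and -0.50 on replicate 1, negative on every array as deposited. Other genes of this list, Msx1 and Cdkn1c among them, were also negative on every array, though Msx1 had -6.27 on replicate 3 and an SD of 3.25. Id2 was positive on every array, at 0.19, 1.32 and 0.26 on replicates 2 to 4 and 0.65 on replicate 1. Of all probes, 15.5% had the same sign on all 4 arrays as deposited. Traf6 had 0.72, 0.32 and 0.58 on replicates 2 to 4 and -1.52 on replicate 1. Of the other Id genes, Id2 had a mean of 0.59 ± 0.63 (SD, n = 3) and Id3 had 0.089, so that the Id genes did not share a sign.

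Several pathway genes are also active in vessels and meninges, and in bulk tissue fewer cells of a type and less RNA per cell cannot be told apart. On replicates 2 to 4, 8 of 11 measured vessel markers of 15 listed were negative and 5 of them had an unadjusted p under 0.05 in limma, all negative, where 4.06% of all probes were negative at this mark. They had medians of -0.29, -0.38 and -0.33 on replicates 2, 3 and 4 and -0.15 on replicate 1. Markers of meninges and mesenchyme were negative for 8 of 9 measured, 2 of them at that mark, with medians of -0.24, -0.17 and -0.26 on replicates 2 to 4 and 0.13 on replicate 1. Of blood markers, 4 of 4 were negative, 2 of them at that mark, and of astroglia 3 of 4 probes, 1 of them at that mark. Of choroid plexus markers, 3 of 5 were positive, with 2 positive and 1 negative at that mark. Of microglia markers, 7 of 9 were positive, 3 of them at that mark, where 5.61% of all probes were positive. On replicates 2 to 4, 19 pathway genes had a negative mean, like most vessel, meningeal and neocortex markers, and 20 had a positive mean. The negative ones included Ltbp1, Bmp2 and Gdf2, and the positive ones Ltbp2 and Tgfbi. All of these named genes were negative on replicate 1 as deposited, as was the vessel median. The meningeal and neocortex medians there were positive, at 0.13 and 0.076. The part of these cell types in the ratios was not tested. Of 12 neocortex markers, 9 were measured, and ratios do not show their level in the tissue. Of these, 7 were negative, like most vessel and meningeal markers, and 2 of them had an unadjusted p under 0.05 in limma. These were Emx1, a homeobox factor of the cortex, at -0.63 ± 0.37 (SD, n = 3), and Neurod2, a factor of excitatory neurons, at -0.44 ± 0.25. On replicate 1 as deposited they had opposite signs, at -0.50 for Emx1 and 0.69 for Neurod2. Neurod6, another marker of this list, was positive on all 4 arrays, with a mean of 0.15 on replicates 2 to 4.

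**Figure D4:**
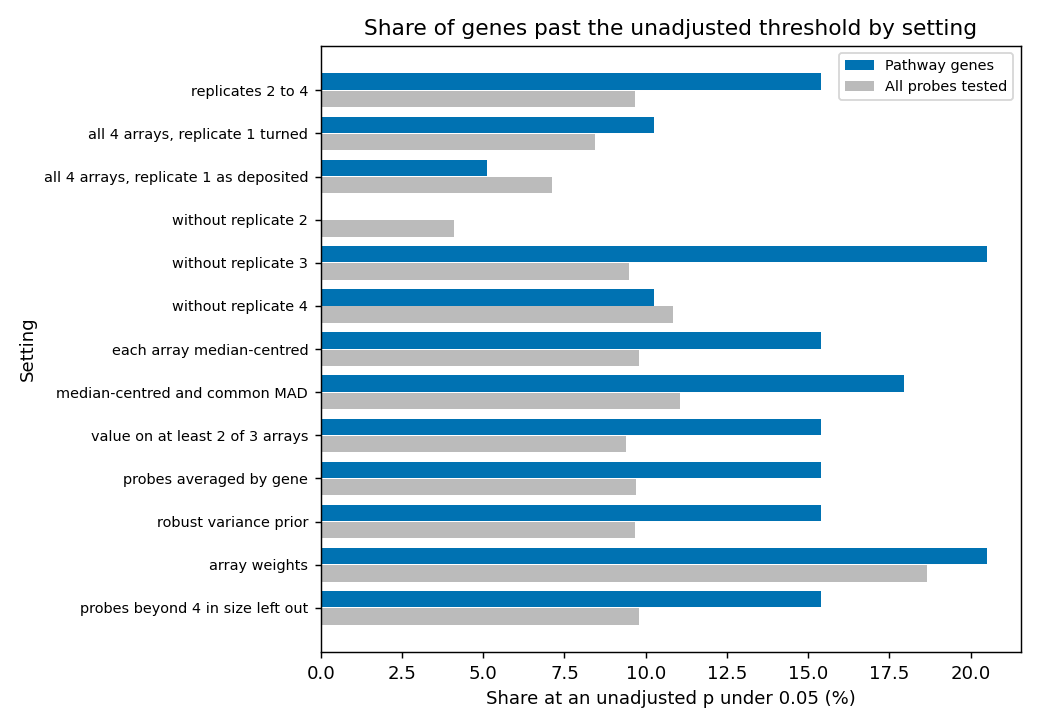
Share of the 39 pathway genes (blue) and of all probes tested (grey) at an unadjusted p under 0.05 in limma (horizontal axis, percent) for each way of processing the arrays (vertical axis). The share of pathway genes goes from 0 without replicate 2 to 20.5% without replicate 3 and with array weights, and lies below that of all probes in 3 of the settings.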

How the data were processed

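The files hold 1 log ratio per probe and array, deposited by the authors and read here as log2. Values reach beyond 6 in size, which does not settle the base, and every fold size rests on this reading. The log base, numerator, background correction and normalization are stated by neither labels nor files, and scanner intensities, signal over background and saturation were not used. For arrays, their number limits the precision. The 0 further columns of values needed no treatment. Column medians lay between -0.031 and 0.0044 and SDs between 0.40 and 0.63. Symbols came from the platform annotation, and all 39 Entrez IDs were found in RefSeq (GRCm38.p6) with 0 changed symbols.

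Means of replicates 2 to 4 were tested against 0, two-sided, by limma (version 3.58.1, R 4.3.3; functions lmFit and eBayes) over all 5720 probes with a value on each, adjusted by Benjamini-Hochberg, with a threshold of 0.05. The pool counts as 1 control sample, so the spread between controls is left out. The fit was tested on simulated data with planted changes larger than the mean of any pathway gene, which does not show how well it finds smaller ones. Genes with an unadjusted p under 0.05 and the 3 smallest p of each role were to be given with every array, and further genes, Smad6, Fst, Id1, Id2 and Id3 among them, were added after their values were seen. Members and lists were chosen with earlier results of these data known. The mutated gene is not reported here. Motifs were searched with Python 3.11.15.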

Additional observations from a re-analysis of the deposited data

Results flagged for a closer look

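Bmp10 on replicate 1, at -0.34 as deposited, lay far below the other 3 arrays, at 0.13 to 0.19. The gap made up 0.886 of the range of the 4 values, above Dixon's 95% critical value for 4 samples. It was the only one of 39 genes with such a gap on the values as deposited, and with replicate 1 turned there were 0. Chance gives such a gap in about 1 in 20 groups.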

How the results depend on the processing

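In each of the 12 alternatives, 0 of the 39 genes had an adjusted p under 0.05 in limma. The count at an unadjusted p under 0.05, 6 on replicates 2 to 4, ranged from 0 to 8 when a replicate was left out. It was 0 without replicate 2, against 4.09% of all probes, and 8 without replicate 3, or 20.5% against 9.50%. Without replicate 4 it was 4, or 10.3% against 10.9%. With all 4 arrays it was 2 with replicate 1 as deposited, or 5.13% against 7.12%, and 4 with it turned, or 10.3% against 8.44%. It was 7 on a common scale, or 17.9% against 11.0%, and 8 with array weights, or 20.5% against 18.7%. The number of genes with the same sign on every array, 14, was 9 with replicate 1 turned, 5 with it as deposited, and 20 to 25 when a replicate was left out, where only 2 arrays have to match. The median log ratio of the genes lay within -0.031 to 0.044 in every alternative. Of the 14 genes chosen by rule, 11 kept their direction in all 12 alternatives. Much of this was fixed in advance. Settings that changed only which probes were fitted, averaged probes by gene or changed the variance prior left these means unchanged. A gene with the same sign on replicates 2 to 4 also cannot turn when a replicate is left out or the arrays are weighted. The sign turned for Tgfb1i1 without replicate 2 (range -0.37 to 0.14 over the replicates left out), for Smad5 without replicate 3 (-0.026 to 0.42), and for Bmpr1b without replicate 3 (-0.020 to 0.42) and with array weights, at -0.095. The cause was not tested. Ltbp1, Bmp2 and Ltbp2 kept an unadjusted p under 0.05 in limma in 10 of 12 alternatives each, a count that includes the settings with an unchanged mean. Each log ratio already compares the null with the pool on the same array. Pairing with separate control samples was not possible because all arrays share 1 pool.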
